A study of Mus musculus with 6 samples.

Results

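The bile duct epithelial markers are 9 genes, Krt7, Krt19, Epcam, Sox9, Spp1, Cftr, Cldn7, Prom1 and Cdh1, chosen by name as genes of the cells that line the bile ducts. A probe set was taken for a gene when the platform annotation gave it exactly 1 gene symbol and that symbol was one of the 9. This found 12 probe sets for 8 of the 9 genes, out of 18193 genes and 45037 non-control probe sets on the array. The probe set with the highest mean over the 6 arrays stood for its gene. Spp1, which encodes osteopontin, was not analysed here.

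The study measured liver RNA on Affymetrix MG 430 2.0 arrays, 1 array per mouse. The tested mice were 3 Retnla-Tg animals (Tg 5, Tg 6 and Tg 7), which carry a transgene for Retnla, a secreted protein of the resistin family known from alternatively activated macrophages. They were set against 3 Retnla-non-Tg animals (non-Tg 1, non-Tg 2 and non-Tg 3). All 6 were male, of strain background C57BL6/J and 3 months old. All 6 had also eaten a high-fat diet, with 21% fat and 0.15% cholesterol, for 4 weeks from 8 weeks of age, so no mouse on another diet stands beside them. The promoter that drives the transgene and the number of founder lines were not given in the sources used here.

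Bile leaves the hepatocyte through canaliculi and drains into ducts lined by cholangiocytes, a thin epithelium that makes up a small part of the liver. These cells carry the simple keratins K7 and K19, join each other through E-cadherin and claudins, and add bicarbonate and water to bile through the chloride channel CFTR. In injured liver, cells with the same markers multiply around the portal tracts, which is called the ductular reaction. In RNA from a whole piece of liver, fewer ducts and less RNA per duct cell cannot be told apart.

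The promoters of Epcam and Cldn7 are shown because their proteins bind each other in the epithelial membrane and because the Cldn7 probe set and the dimmer Epcam probe set were high in the same 3 livers, a pair picked after the values were seen. The sequences are RefSeq's for GRCm38.p6 and run from 250 bases before to 50 bases after the listed start, 5′ to 3′. Epcam lies on chr17:87635729-87636028, plus strand, and Cldn7 on chr11:69964529-69964828, plus strand, the first of 2 starts listed for it. Capitals mark the motifs searched on both strands, the GC box GGGCGG, the E-box CAGGTG and the TATA box TATAAA.
Epcam: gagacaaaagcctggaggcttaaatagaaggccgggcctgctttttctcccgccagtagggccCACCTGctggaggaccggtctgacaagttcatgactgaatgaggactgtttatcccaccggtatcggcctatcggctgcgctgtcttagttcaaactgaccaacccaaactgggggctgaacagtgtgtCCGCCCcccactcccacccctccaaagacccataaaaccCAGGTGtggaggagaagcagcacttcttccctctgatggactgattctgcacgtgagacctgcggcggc
Cldn7: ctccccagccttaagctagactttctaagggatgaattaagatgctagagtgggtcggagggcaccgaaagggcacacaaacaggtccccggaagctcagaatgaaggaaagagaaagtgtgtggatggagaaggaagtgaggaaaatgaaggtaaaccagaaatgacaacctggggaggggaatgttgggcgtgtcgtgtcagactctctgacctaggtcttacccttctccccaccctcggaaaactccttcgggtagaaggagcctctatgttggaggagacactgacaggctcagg
The Epcam window held 1 GC box and 2 E-boxes, and no TATAAA. The Cldn7 window held none of these letters, which draws nothing about the factors that bind them. Of 32851 promoter windows of the same length, 35.7% held a GC box, 20.2% this E-box and 13.6% TATAAA. In all, 6 of the 9 genes had a promoter in the table.

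The arrays had been scaled to one target, so likeness in overall signal was set by the scaling. Their median log2 signal lay between 6.49 and 6.74. The transgene set the groups apart as labelled: Retnla was at 15.91 to 16.04 in Tg livers and at 6.03 to 7.41 in non-Tg livers. Alb, the albumin gene that marks hepatocytes, was at 16.20 to 16.33 in Tg livers and at 16.24 to 16.39 in non-Tg livers. No detection calls were at hand, so a low signal cannot be read as present or absent. Genes entered the test if their mean signal exceeded 5.63 on the log2 scale, the 40th percentile of non-control probe sets. Of the 8 measured markers, 6 lay above this limit, and Cftr and Cldn7 lay below it. All log2 differences below are Tg minus non-Tg.

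None of the bile duct markers changed in Tg livers by the test across all genes. With limma, 0 of the 6 markers above the limit had an adjusted p under 0.05, against 0.0157% of the 12705 genes tested. That share is 2 genes, and 1 of them is Retnla, the transgene itself. At an unadjusted p under 0.05 the limma count of markers was also 0, against 6.05% of all genes. The groups overlapped for each of the 8 markers, while they did not overlap for 11.7% of the genes tested, with 6.04% higher and 5.64% lower in Tg livers, and for 11.2% of the 18193 genes without the limit. Of the 6 markers, 5 had a mean that was lower in Tg livers and 1 had a mean that was higher, beside 47.9% lower among all genes tested. Without the limit, 7 of the 8 were lower, beside 46.6% of 18193 genes. Their median log2 difference was -0.35, against 0.01 over all 12705 genes. With 1 mouse left out this median ran from -0.54 without non-Tg 3 to -0.19 without non-Tg 1. It was -0.83 within the lower and 0.23 within the higher of 2 array sets that differ in a spiked control, bioC. A limit at the 60th percentile left 1 marker, Cdh1, at -0.08. The limma adjusted p ran from 0.841 for Epcam to 0.975 for Krt19 among these 6 genes. With 3 mice in each group this does not show that the markers were unchanged, and the intervals below give the sizes that remain possible.

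Krt7 and Krt19 encode the keratins that, within the liver, pathologists use to find bile ducts. Krt7 had log2 signals of 4.78, 6.09 and 6.77 in Tg 5, Tg 6 and Tg 7, against 6.99, 5.68 and 6.43 in non-Tg 1, non-Tg 2 and non-Tg 3. Tg 5 was the lowest of the 6 livers and the other 2 Tg livers lay among the non-Tg livers. The log2 difference of Krt7 was -0.49 ± 0.65 (SE; limma adjusted p = 0.898), with a 95% confidence interval from -1.94 to 0.95. Without Tg 5 it was 0.06. Krt19 had log2 signals of 5.92, 6.75 and 6.24 in the Tg livers, against 6.65, 6.42 and 5.50 in the non-Tg livers. The highest Krt19 signal came from Tg 6 and the lowest from non-Tg 3. Its log2 difference was 0.12 ± 0.51 (SE; limma adjusted p = 0.975), with a 95% interval from -1.04 to 1.27, and it was the single marker with a higher mean in Tg livers. Without non-Tg 3 it was -0.23.

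Epcam, Cldn7 and Cdh1 encode proteins that hold epithelial cells together. EpCAM is a membrane glycoprotein of cholangiocytes that mature hepatocytes lack. Epcam had log2 signals of 6.57, 6.82 and 7.25 in the Tg livers, against 7.91, 7.11 and 7.04 in the non-Tg livers. Tg 5 and Tg 6 were the lowest, and Tg 7 lay between non-Tg 1 and non-Tg 2. The log2 difference of Epcam was -0.47 ± 0.36 (SE; limma adjusted p = 0.841), or 0.72-fold with a 95% interval from 0.41 to 1.26. Without non-Tg 1 it was -0.19. Among the 20 ways to assign the mice, the exact permutation test of Epcam gave p = 0.3, where this design cannot go below 0.1.

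The second Epcam probe set, which lay below the limit, had log2 signals of 3.31, 2.68 and 6.08 in the Tg livers, against 6.49, 5.57 and 2.30 in the non-Tg livers. It fell into 3 high livers, Tg 7, non-Tg 1 and non-Tg 2, and 3 low ones, which is not the split between the groups. Its log2 difference was -0.76 ± 1.29 (SE). Cldn7, whose protein claudin-7 sits in epithelial junctions and binds EpCAM, had signals of 4.76, 3.10 and 5.33 in the Tg livers, against 6.27, 6.66 and 3.85 in the non-Tg livers. The same 3 livers were high and the same 3 low. Both probe sets are dim, and the standing Epcam probe set did not follow this order. In the fit without the limit on dim genes the log2 difference of Cldn7 was -1.20 ± 0.97 (SE; limma adjusted p = 0.873), with a 95% interval from -3.35 to 0.96. That fit called 0.011% of 18193 genes. Without Tg 6 the Cldn7 difference was -0.54, and without non-Tg 3 it was -2.07.

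Cdh1 encodes E-cadherin, the adhesion protein of epithelial junctions, which periportal hepatocytes carry as well as duct cells. Its log2 signals were 10.74, 9.60 and 9.79 in the Tg livers, against 9.81, 10.71 and 9.85 in the non-Tg livers. One liver of each group, Tg 5 and non-Tg 2, stood above the other 4, which lay within 9.60 to 9.85. The log2 difference of Cdh1 was -0.08 ± 0.32 (SE; limma adjusted p = 0.974). Its 95% interval, from 0.58-fold to 1.56-fold, was the narrowest among the 8 markers.

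Sox9 encodes the transcription factor that marks the ductal plate and adult duct cells. On its standing probe set the log2 signals were 5.86, 3.61 and 6.97 in the Tg livers, against 6.38, 6.47 and 6.43 in the non-Tg livers. The non-Tg livers lay within 6.38 to 6.47, while the Tg livers held both the highest and the lowest of the 6 values. The log2 difference was -0.95 ± 0.81 (SE; limma adjusted p = 0.854), with a 95% interval from -2.77 to 0.87. Without Tg 6 it was -0.01. The next Sox9 probe set had signals of 5.39, 6.30 and 4.60 in the Tg livers, against 6.54, 6.06 and 4.96 in the non-Tg livers. There Tg 6 was the second highest liver and Tg 7 the lowest, so the 2 probe sets ranked the Tg livers in opposite order. Its log2 difference was -0.42 ± 0.74 (SE), and that of the third and dimmest Sox9 probe set was -0.37 ± 1.21 (SE).

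Cftr encodes the chloride channel through which cholangiocytes secrete into bile. It had log2 signals of 4.15, 4.82 and 5.06 in the Tg livers, against 5.85, 2.45 and 5.78 in the non-Tg livers. Non-Tg 2 was the lowest of the 6 and the other 2 non-Tg livers the highest. In the fit without the limit the log2 difference was -0.02 ± 1.02 (SE; limma adjusted p = 0.999), with a 95% interval from -2.29 to 2.25. Without non-Tg 1 it was 0.56 and without non-Tg 2 it was -1.14. A second Cftr probe set spanned -1.19 to 4.89 over the 6 livers and differed by -1.95 ± 1.51 (SE). The span of that probe set was 6.08 log2 units, so it gave no usable level for Cftr.

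Prom1 encodes prominin-1, also called CD133, a membrane glycoprotein of duct and progenitor cells. Its log2 signals were 6.19, 6.99 and 6.10 in the Tg livers, against 7.03, 7.43 and 5.53 in the non-Tg livers. Non-Tg 2 was the highest liver and non-Tg 3 the lowest, so the non-Tg group enclosed the Tg group. The log2 difference of Prom1 was -0.24 ± 0.56 (SE; limma adjusted p = 0.953), with a 95% interval from -1.49 to 1.02. Without non-Tg 2 it was 0.15, and without non-Tg 3 it was -0.80.

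**Figure D1:**
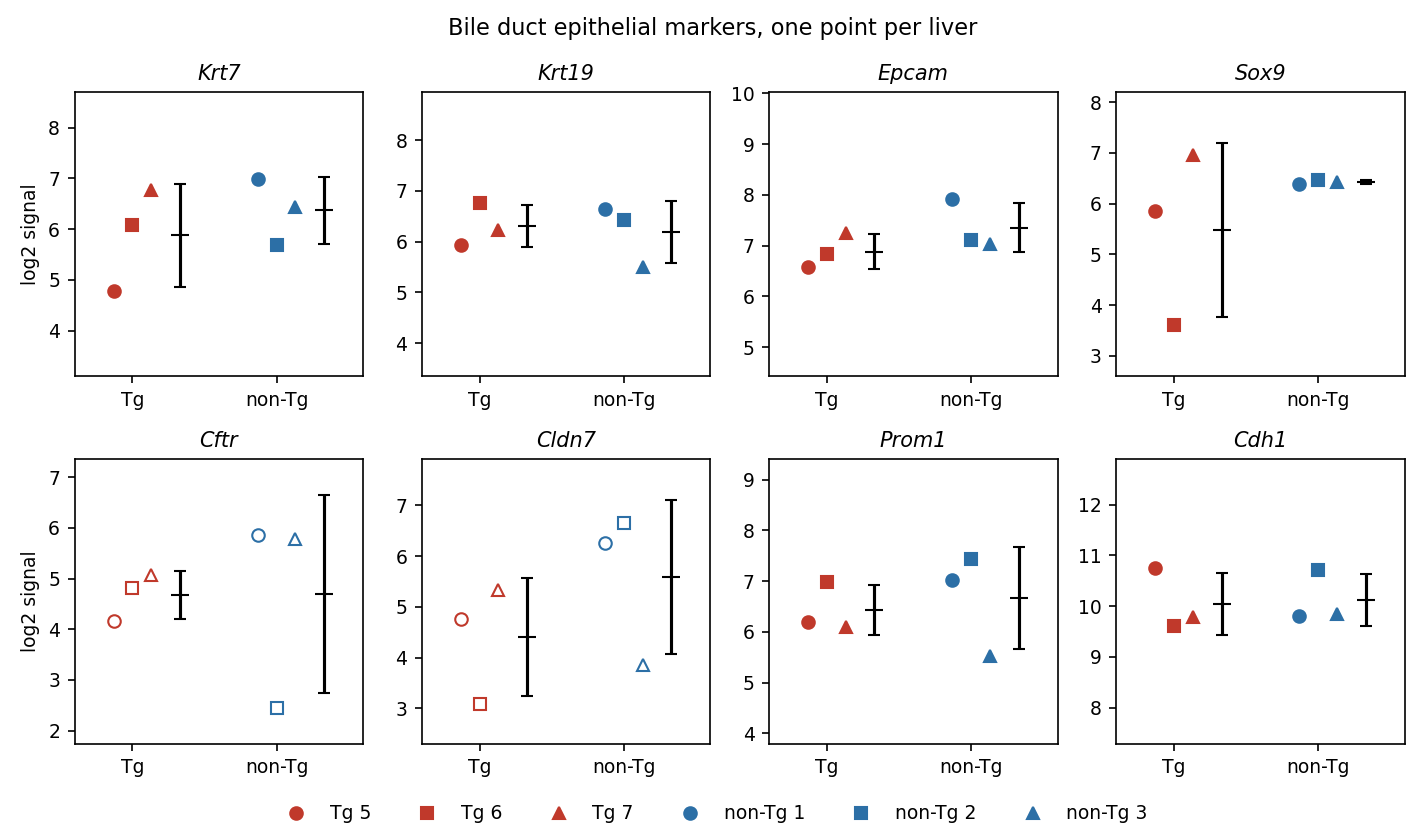
Log2 signal (y axis) of the 8 measured markers in each liver, Tg left and non-Tg right; bars are the mean ± SD of 3 livers, open points mark Cftr and Cldn7, which lay below the limit of 5.63, and every panel spans the same number of log2 units. Tg and non-Tg livers overlap in each panel, and the 3 non-Tg livers lie close together for Sox9, at 6.38 to 6.47.

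The markers did not share one order of livers. Non-Tg 1 was highest for 3 of the 8 markers and non-Tg 2 for 2, while Tg 5, Tg 6 and Tg 7 were each highest for 1. Tg 6 was lowest for 3, Tg 5 and non-Tg 3 for 2 each, and non-Tg 2 for 1. The range over the 6 livers was 1.14 log2 units for Cdh1, 1.25 for Krt19, 1.35 for Epcam and 3.57 for Cldn7. Across the 2851 tested genes with a mean signal under 7, the median range over the 6 livers was 1.75. All 4 further probe sets, 1 for Epcam, 2 for Sox9 and 1 for Cftr, differed in the same direction as the standing probe set of their gene, and their intervals all included 0. The shared sign carries little. The standing Cftr difference was -0.02 ± 1.02 (SE), and the brighter 2 Sox9 probe sets ranked the Tg livers in opposite order.

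**Figure D2:**
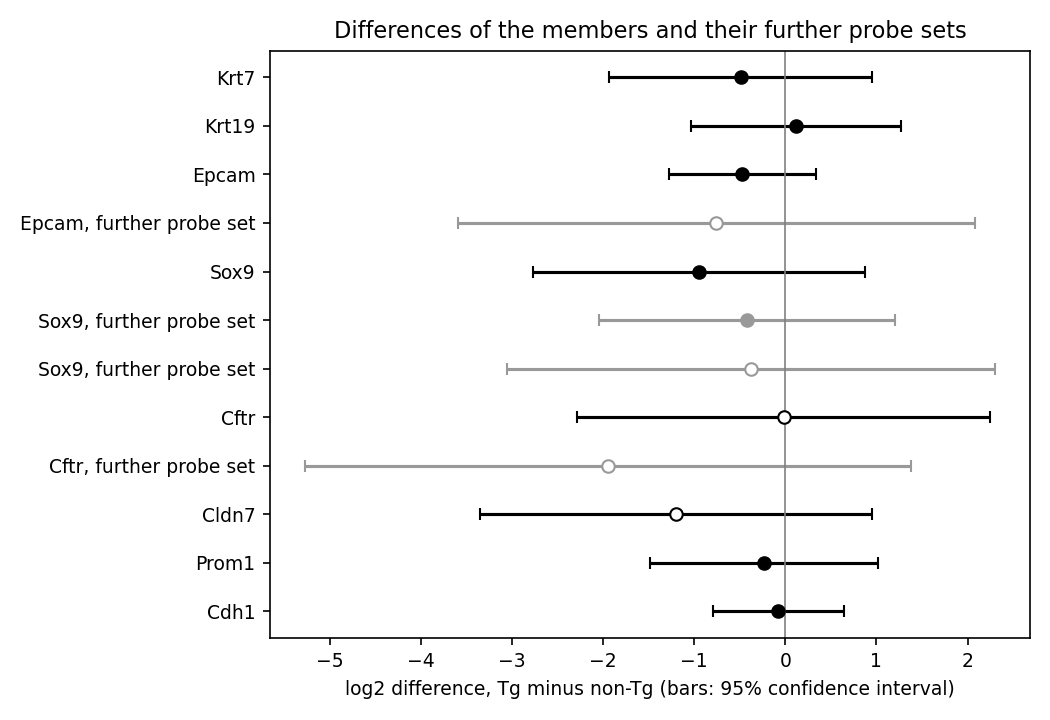
Log2 difference, Tg minus non-Tg (x axis), with its 95% confidence interval for the standing probe set of each marker (black) and its further probe sets (grey); open points lay below the limit on dim probe sets. Every interval crosses 0, from the narrow one of Cdh1 at -0.80 to 0.64 to that of the second Cftr probe set at -5.27 to 1.38.

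The 6 arrays fell into 2 sets by the signal of bioC, a bacterial transcript added to each sample as a control, and the sets cut across the groups. Tg 5, Tg 6 and non-Tg 1 had a mean bioC signal of 9.83 to 9.94, and Tg 7, non-Tg 2 and non-Tg 3 of 11.2 to 11.4. Within the lower set the log2 difference was -1.56 for Krt7, -1.22 for Epcam, -1.65 for Sox9, -1.37 for Cftr, -2.34 for Cldn7 and -0.44 for Prom1, each over 2 Tg livers and 1 non-Tg liver. Krt19 stood at -0.31 and Cdh1 at 0.36 there. Within the higher set, with 1 Tg liver and 2 non-Tg livers, the differences were 0.71 for Krt7, 0.18 for Epcam, 0.52 for Sox9, 0.94 for Cftr, 0.08 for Cldn7, -0.38 for Prom1, 0.28 for Krt19 and -0.49 for Cdh1. Prom1 kept its sign between the sets and the other markers did not. How often the sign changes over all genes was not tested, and each difference hangs on the single liver of 1 group. With the sets as a block, limma called 0 of the markers, against 4 of the 12705 genes tested.

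**Figure D3:**
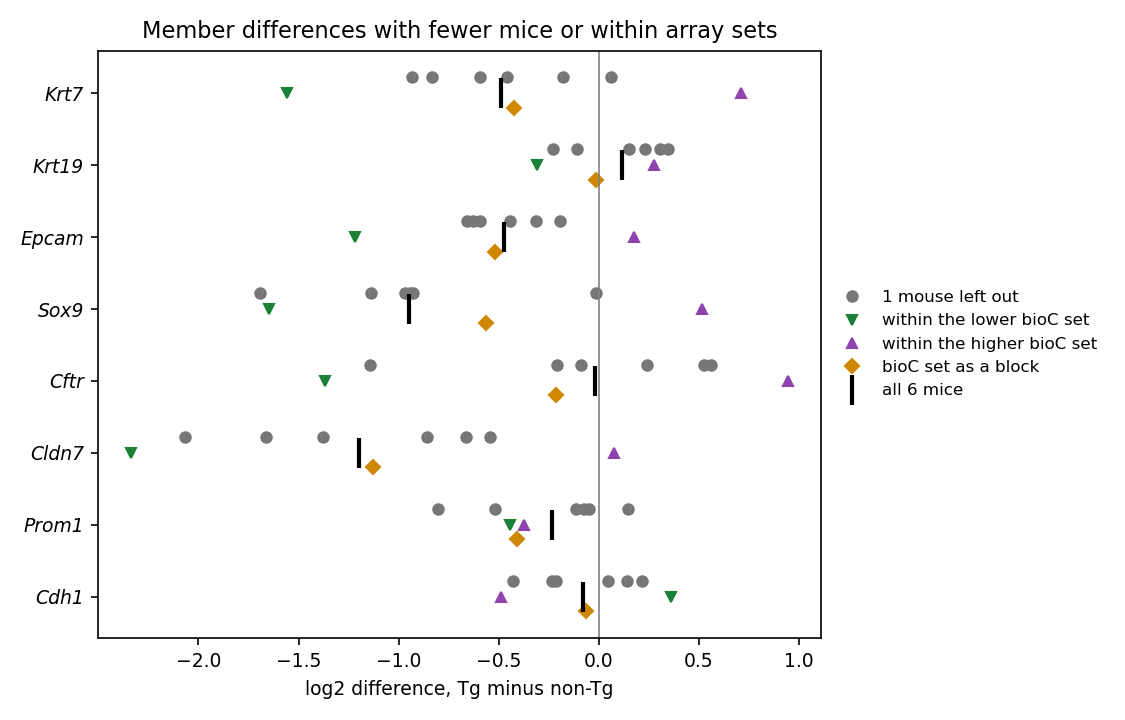
Log2 difference, Tg minus non-Tg (x axis), of each marker with all 6 mice (black bar), with 1 mouse left out (grey), with the bioC set as a block (diamond) and within each bioC set (triangles). For Krt7 the values within the lower and the higher set are -1.56 and 0.71, on opposite sides of 0, and for Sox9 the value without Tg 6 is -0.01.

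Other genes listed for bile duct cells gave 0 calls as well. Of 24 further genes listed, 20 had a probe set and 14 lay above the limit. Of these 14, 4 were higher and 10 lower in Tg livers, with a median log2 difference of -0.16 (-0.28 to -0.02 with 1 mouse left out). The brightest, Cldn3, a claudin, differed by 0.02, and the dimmest, Muc1, a mucin, by 0.56. Muc1 lay below the limit, as did Dmbt1, Ehf, Itgb6, Cldn4 and Vtcn1. These differed by 2.65, 1.24, 0.30, 0.13 and -0.15, so most genes below the limit were higher in Tg livers. Dmbt1 was at 5.63, 6.68 and 4.32 in the Tg livers, against 4.49, 2.26 and 1.93 in the non-Tg livers, and did not pass (limma adjusted p = 0.826). Bicc1, an RNA-binding protein whose loss causes cysts in ducts and kidney tubules, was at 7.47, 7.98 and 6.84 in the Tg livers, against 8.40, 8.44 and 8.14 in the non-Tg livers. The groups did not overlap, and the log2 difference of -0.90 ± 0.30 (SE; limma adjusted p = 0.779) did not pass. Other Bicc1 probe sets gave 0.02 and -0.67. Dsg2, a desmosomal cadherin, was at 11.91, 11.79 and 11.87 in the Tg livers, against 12.08, 12.20 and 12.12 in the non-Tg livers. The groups did not overlap for Dsg2, whose log2 difference was -0.28 ± 0.10 (SE; limma adjusted p = 0.787). Cldn3 and Dsg2 had mean log2 signals of 12.07 and 11.99 over the 6 livers, against 6.25 for Krt19. Which cells gave these signals was not tested.

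Onecut1 encodes HNF6, a transcription factor that hepatocytes share with duct cells and that mouse embryos need to form bile ducts. It was singled out after its values were seen. Its log2 signals were 9.86, 9.69 and 8.53 in the Tg livers, against 11.01, 9.85 and 10.13 in the non-Tg livers. Tg 5 lay just above non-Tg 2, and the other Tg livers lay below all non-Tg livers. The log2 difference was -0.97 ± 0.37 (SE; limma adjusted p = 0.787), which did not pass. With the bioC sets as a block it was -1.35 ± 0.15 (SE; limma adjusted p = 0.0446), 1 of 4 genes past the threshold in that fit. Within the lower and the higher set Onecut1 differed by -1.23 and -1.46. The second Onecut1 probe set differed by -0.64, and by -0.90 with the block. In the block fit the Onecut1 call held without Tg 5 (limma adjusted p = 0.0228). It was lost without any one of the other 5 mice, with limma adjusted p from 0.0730 to 0.626. Without Tg 7 or non-Tg 1, that fit rests on 1 bioC set alone.

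Krt8 and Krt18, the keratins that hepatocytes and duct cells share, were lower in the mean. Krt8 had log2 signals of 12.38, 12.64 and 12.87 in the Tg livers, against 13.15, 13.25 and 12.90 in the non-Tg livers. All 3 Tg livers lay below all 3 non-Tg livers, Tg 7 by a small margin. The log2 difference was -0.47 ± 0.14 (SE; limma adjusted p = 0.735), which did not pass. The 2 other Krt8 probe sets gave -0.40 and -0.45, without overlap between the groups. Within the lower and the higher bioC set Krt8 differed by -0.64 and -0.20. The Krt18 groups overlapped, and the difference was -0.33 ± 0.15 on the log2 scale (SE; limma adjusted p = 0.807). Dsp, the desmosomal plakin to which keratins attach, differed by -0.40 ± 0.14 (SE; limma adjusted p = 0.787), without overlap. In all, 7 of 9 keratins and keratin partners lay above the limit, 3 higher and 4 lower, with a median of -0.23 (-0.29 to -0.14 with 1 mouse left out) and 0 calls. Their summed signal was 17356 to 18696 in Tg livers and 20210 to 24189 in non-Tg livers, and without Krt8 and Krt18 it was 5903 to 6502 in Tg livers and 6188 to 6721 in non-Tg livers, which overlap.

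Partners of Cdh1, Cldn7 and Epcam at the junctions were split, with 8 higher and 11 lower of 19 genes above the limit, a median log2 difference of -0.05 (-0.13 to -0.00 with 1 mouse left out) and 0 calls. Cldn1, a tight junction claudin, was at 11.01, 9.45 and 9.98 in the Tg livers, against 10.90, 10.98 and 11.01 in the non-Tg livers. Tg 6 and Tg 7 were low while Tg 5 stood with the non-Tg livers. The log2 difference of Cldn1 was -0.82 ± 0.32 (SE; limma adjusted p = 0.797). Cldn2, a pore-forming claudin of liver junctions, differed by -0.28 ± 0.12 (SE; limma adjusted p = 0.807), without overlap. Ctnnb1 and Ctnna1, the catenins that tie E-cadherin to actin, differed by -0.14 and -0.02.

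Genes of Notch and YAP signalling, the pathways that steer cells towards duct fate, gave 5 higher and 10 lower of 15 above the limit, with a median log2 difference of -0.22 and 0 calls. Ccn2, a YAP target, differed by -0.73 ± 0.41 (SE; limma adjusted p = 0.820). Amotl2, Ankrd1 and Ccn1, also YAP targets, differed by 0.17, 0.93 and -0.07, with Ankrd1 below the limit. Yap1, the brightest gene listed, differed by -0.01. Wwtr1, which encodes the YAP relative TAZ, differed by -0.33 ± 0.19 (SE; limma adjusted p = 0.824). Jag1, a ligand of duct formation picked after its values were seen, differed by -0.22, and Notch2, its receptor, by 0.30. The mean log2 signal of the 15 was 8.56 to 8.63 in Tg livers and 8.71 to 8.76 in non-Tg livers, without overlap. The antilogged signal summed over all 18 genes listed was 8192 to 8671 in Tg livers and 8923 to 9092 in non-Tg livers, also without overlap. Both summarize the same list. The summed signal did not overlap in the keratin, intestinal and mesothelial lists either, and single genes did not overlap for 11.7% of the genes tested. The median of the Notch and YAP list was -0.09 when the probe sets of a gene were averaged, and ran from -0.26 without Tg 7 to 0.01 without non-Tg 1. In the list of receptors and partners of osteopontin, 12 genes lay above the limit, 6 higher and 6 lower, with 0 calls. Their median was -0.02 (-0.18 to 0.17 with 1 mouse left out). The list wrongly holds Thrb, the gene of a thyroid hormone receptor, which is among the 6 lower at -0.19. The even split and the sign of the median are therefore not those of osteopontin partners alone. Mmp9, a protease that can cleave osteopontin, differed by -1.88 ± 0.79 (SE; limma adjusted p = 0.807). Within the lower and the higher bioC set Mmp9 differed by -3.39 and -0.07. Itgb5, an integrin subunit, differed by 0.33 ± 0.16 (SE; limma adjusted p = 0.814).

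**Figure D4:**
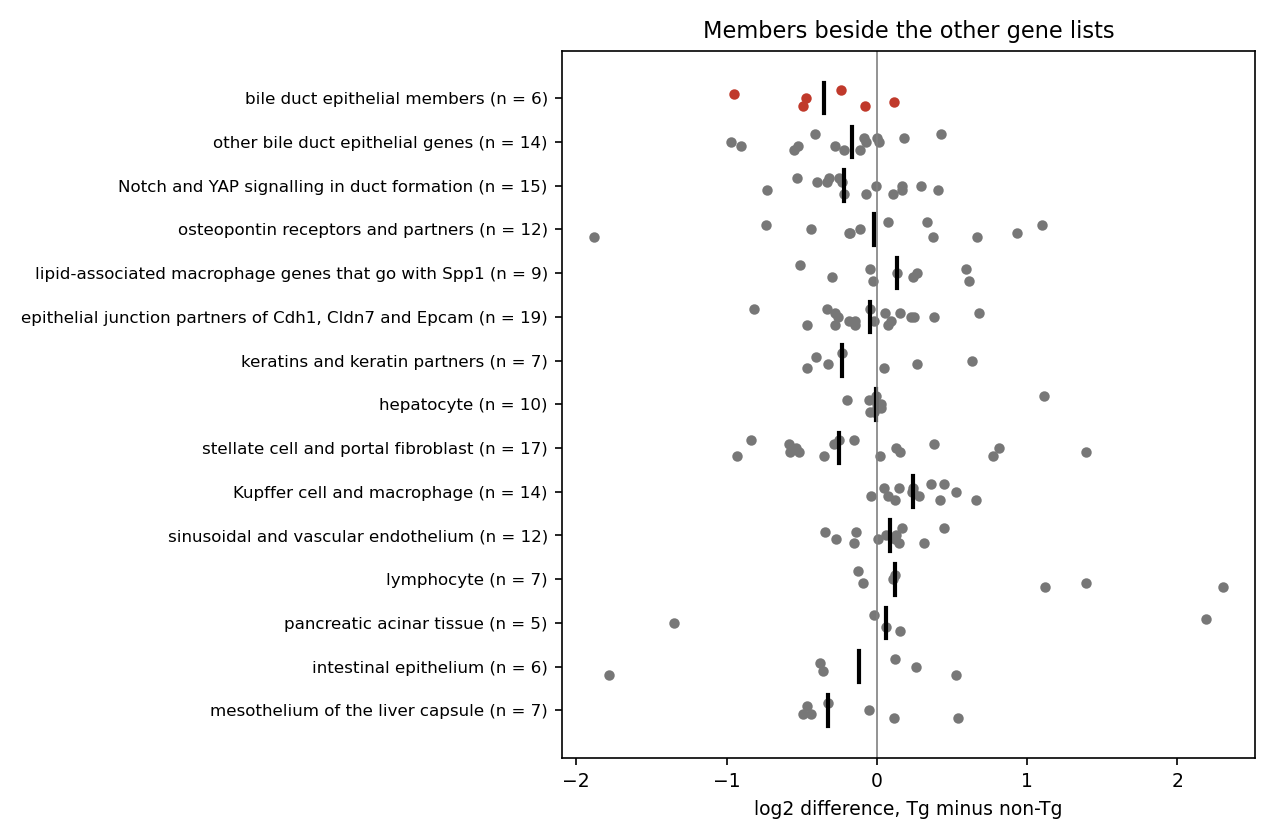
Log2 difference, Tg minus non-Tg (x axis), of each gene above the limit (points) in the bile duct markers (red) and the other lists (grey), with the list's median as a bar; n is the number of genes above the limit. Points lie on both sides of 0 in every list. The median of the bile duct markers is -0.35 (-0.54 to -0.19 with 1 mouse left out), and that of the Kupffer cell list is 0.24 (-0.18 without Tg 6).

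Several marker genes are shared with other cells a piece of liver can hold. The mesothelium that covers the liver also carries Krt7, Krt19, Krt8 and Krt18. In the mesothelial list 2 of 7 genes above the limit were higher and 5 lower, with a median of -0.33 (-0.42 to 0.04 with 1 mouse left out) and 0 calls. These 4 keratins are among its 10 genes, and Krt8 and Krt18 made up 95.4% to 96.8% of its summed signal. The signal summed over the 8 others was 479 to 531 in Tg livers and 445 to 839 in non-Tg livers, which overlap. Upk3b, a mesothelial uroplakin picked after its values were seen, was at 3.22, 3.41 and 4.52 in the Tg livers, against 7.14, 7.24 and 5.72 in the non-Tg livers. It lay below the limit, and its log2 difference of -2.98 did not pass (limma adjusted p = 0.670). Msln and Wt1, defining mesothelial genes, lay below the limit too. Msln, also picked later, was at 2.62 to 6.56 in Tg livers and 5.19 to 6.91 in non-Tg livers, and Wt1 at 4.47 to 5.84 in Tg livers and 3.21 to 5.68 in non-Tg livers. The part of mesothelium in the keratin values was not tested.

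Tg 6, the liver with the lowest Sox9, Cldn7 and Cdh1 on their standing probe sets, was also the highest in macrophage genes. It was not low in all duct markers. Tg 6 had the highest Krt19 of the 6 livers, at 6.75, and the highest Prom1 of the Tg livers, at 6.99. On the next Sox9 probe set it was the second highest liver, at 6.30. The summed signal of 14 Kupffer cell and macrophage genes was 36091, 64033 and 25320 in Tg 5, Tg 6 and Tg 7, against 33487, 31030 and 35007 in the non-Tg livers. Of the 14 genes, 13 were higher and 1 lower, with a median of 0.24 and 0 calls. Without Tg 6 the median was -0.18, and without Tg 7 it was 0.60. It was 0.08 with the bioC sets as a block, 0.52 within the lower set and -0.41 within the higher one. Adgre1, an adhesion receptor of macrophages, differed by 0.53 and C1qb, a complement subunit, by 0.36, and the brightest and dimmest, Csf1r, Cd5l and Fcgr1, by 0.28, 0.08 and 0.15. The lipid-associated macrophage list had 5 higher and 4 lower of 9, with 0 calls and a median of 0.13. The median was -0.24 without Tg 6, 0.43 without Tg 7, -0.12 with the block and -0.03 with the limit at the 60th percentile, and 0.41 with array weights. Its summed signal was 7935 to 15003 in Tg livers and 11086 to 14117 in non-Tg livers. Lpl, lipoprotein lipase, differed by -0.51 and Fabp5, a fatty acid binding protein, by 0.59, and the dimmest, Mmp12, a macrophage elastase, by -2.03 (limma adjusted p = 0.826). The part of macrophages in the duct marker values was not tested.

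The other cell lists gave 0 calls each, and the genes named in them did not pass. Stellate cell and portal fibroblast genes were 7 higher and 10 lower of 17, with a median of -0.25, which was 0.13 without Tg 7 and -0.03 without non-Tg 2. Their genes of smallest p went in both directions. Lrat, which esterifies retinol, differed by -0.93 ± 0.26 without overlap, and Rgs5, a pericyte gene, by 0.81 ± 0.24 (SE; limma adjusted p = 0.735 for each). Acta2, smooth muscle actin, picked after its values were seen, differed by 0.77 ± 0.29 (SE; limma adjusted p = 0.787), higher in Tg livers without overlap. Dcn, Reln and Des, the brightest and the dimmest, differed by -0.25, -0.52 and -0.19. The summed signal was 15233 to 17230 in Tg livers and 16678 to 20911 in non-Tg livers.

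Hepatocyte genes were 4 higher and 6 lower of 10, with a median of -0.00 (-0.04 to 0.02 with 1 mouse left out). Tat, a tyrosine-degrading enzyme, was at 14.51, 15.33 and 15.10 in the Tg livers, against 13.74, 13.50 and 14.36 in the non-Tg livers. The groups did not overlap, and Tat differed by 1.12 ± 0.24 (SE; limma adjusted p = 0.468). Apob, the apolipoprotein of VLDL, differed by -0.20, also without overlap, and Apoa1, Alb and Hnf4a by 0.03, -0.04 and -0.01. Endothelial genes were 8 higher and 4 lower of 12, with a median of 0.09 (-0.06 to 0.11). Oit3 and Kdr, a VEGF receptor, differed by -0.27 and -0.34, and Clec4g, Ptprb and Vwf by 0.12, -0.15 and 0.06. Lymphocyte genes were 5 higher and 2 lower of 7, with a median of 0.12 (-0.16 to 0.50). Gzma and Nkg7, of cytotoxic cells, differed by 1.39 and 2.31, Gzma without overlap, and Cd8a, Cd79b and Cd3d by -0.09, -0.13 and 1.20. The SE of the Nkg7 difference was 1.13. Nkg7 was at 1.65 in non-Tg 2, against 5.62 and 6.36 in non-Tg 1 and non-Tg 3.

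Pancreatic acinar genes, whose tissue also has ducts with these markers, were 3 higher and 2 lower of 5, with a median of 0.06 (-0.16 to 0.26 with 1 mouse left out). Prss2, a trypsinogen, was at 7.20, 7.71 and 7.06 in the Tg livers, against 5.81, 3.63 and 5.96 in the non-Tg livers. The groups did not overlap, and the log2 difference of Prss2 was 2.19 ± 0.67 (SE; limma adjusted p = 0.735), or 1.95 with the bioC block. The elastases Cela3b, Cela1 and Cela2a differed by -1.35, 0.16 and 0.06. Cpa1, a defining acinar enzyme and the dimmest, was at 1.96 to 3.42 in Tg livers and 2.09 to 3.21 in non-Tg livers. Intestinal genes were 3 higher and 3 lower of 6, with a median of -0.12 (-0.19 to 0.10). Fabp2, an intestinal fatty acid binding protein, differed by -0.35 ± 0.10 without overlap (SE; limma adjusted p = 0.735). Fabp2 made up 90.2% to 93.2% of the summed intestinal signal, and the other genes summed to 827 to 941 in Tg livers and 858 to 908 in non-Tg livers. Slc5a1, a glucose transporter, differed by -1.78 (limma adjusted p = 0.820), without overlap and with Tg 6 the lowest liver, and Lgals4, a galectin, by 0.26. Vil1, which encodes villin, was at 1.23 to 3.09 in Tg livers and 1.05 to 3.26 in non-Tg livers. The part of these cells in the duct marker values was not tested.

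The likeness of other genes to each marker was taken as the root mean square difference between log2 profiles centred on their own mean over the 6 livers, among the 12705 genes. The genes closest to Krt19 were Mcm5, a replicative helicase subunit, at 0.083, and Vrk2, a kinase, at 0.11. Those closest to Cdh1 were Ranbp3l at 0.10 and Ncs1, a calcium sensor, at 0.11. Ranbp3l had signals of 8.91, 7.84 and 7.87 in the Tg livers, against 8.18, 8.96 and 8.21 in the non-Tg livers, with Tg 5 and non-Tg 2 high as for Cdh1. Epcam had 8030451A03Rik at 0.11 and Lhx3 at 0.12, Krt7 had Csmd3 at 0.10 and 4930506C21Rik at 0.26, Sox9 had Serinc2 at 0.22 and Apbb1ip at 0.22, and Prom1 had Prss16 at 0.20 and Arhgef17 at 0.24. Genes within 0.5 of a marker numbered 34 for Sox9 and 6688 for Epcam, so a small distance is common for a marker with a small range. None of the closest genes was another bile duct marker.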

How the data were processed

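The deposited table holds the authors' log2 signal for 45101 probe sets on 6 arrays, 1 per mouse. Labelling started from 5 µg of RNA, per the labels' protocols. Per the submitters' processing notes the arrays were processed with GCOS, the Affymetrix array software. Neither its version nor its summary algorithm is given in the sources used here. Signals run from -2.64 to 16.80, and the antilogged mean with the extremes trimmed is the same on each array, so the arrays had been scaled to one target. Array medians were 6.74, 6.59 and 6.52 in Tg 5, Tg 6 and Tg 7, and 6.62, 6.49 and 6.51 in non-Tg 1, non-Tg 2 and non-Tg 3. No probe set had the same value on 2 arrays.

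The 64 control probe sets were set aside. The platform annotation gave 1 symbol for 34945 probe sets, several for 932 and none for 9160. By Entrez number, 34741 matched RefSeq's GRCm38.p6 table. Above the 40th percentile, each gene's probe set of highest mean entered limma 3.58.1 (R 4.3.3), 2-sided, moderated by eBayes along an intensity trend, adjusted by Benjamini and Hochberg over 12705 genes at 0.05. SEs and intervals come from that fit. Markers below the limit were read from the same fit without it, and further probe sets from a fit of all probe sets with 1 symbol. The procedure was tested on simulated data. Single markers also had an exact permutation test.

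The markers, the 14 other lists and the bioC sets were chosen with earlier results of these data known. The genes named are all markers, Retnla, the 2 of smallest p in each list and, for cell types, the 2 brightest and the dimmest. Notch2, Yap1, Ctnnb1, Ctnna1 and Krt18 (brightest in other lists) were added later, as were those said to be picked after their values were seen. Amotl2, Ankrd1, Ccn1, Dmbt1, Ehf, Itgb6, Cldn4 and Vtcn1 were added later too. Alternatives were 16 or 64 added before the log, other limits, quantile normalization, median centring, moderation without trend or robust, array weights, averaged or separate probe sets, the bioC block, a Student test and leaving out each mouse. The number of arrays limits the precision. Figures used matplotlib 3.10.9.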

Additional observations from a re-analysis of the deposited data

How the results depend on the processing

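No marker passed the threshold under any alternative that gave a test, with limma adjusted p from 0.553 to 1.000 over 19 such alternatives. The Student test gave 0 markers and 731 genes at an unadjusted p under 0.05. Over all genes, where 2 were called, the count was 4 with 16 added before the log, 6 with 64 added, 6 with the limit at the 20th percentile, 5 with arrays centred on their medians, 4 with robust moderation, 4 with the bioC sets as a block and 0 with the Student test. Array weights turned Cftr to 0.083, and the block turned Krt19 to -0.016. Within the lower bioC set Krt19 was turned to -0.31 and Cdh1 to 0.36. Within the higher set Krt7 was turned to 0.71, Epcam to 0.18, Sox9 to 0.52, Cftr to 0.94 and Cldn7 to 0.076. With 1 mouse left out the difference ran from -0.94 to 0.059 for Krt7, from -0.23 to 0.34 for Krt19, from -1.14 to 0.56 for Cftr, from -0.80 to 0.15 for Prom1 and from -0.43 to 0.21 for Cdh1. For Epcam, Sox9 and Cldn7 it ran from -0.66 to -0.19, from -1.69 to -0.01 and from -2.07 to -0.54. The cause of these changes was not tested. With 64 added before the log, Sox9 stood at -0.31 and Cldn7 at -0.47. The list medians moved by more than 1 SD between livers in 31 of 330 recomputed values. The bioC values of the list genes, the left-out mice of Onecut1 and the sums without Krt8, Krt18 or Fabp2 were added after seeing the data. No paired analysis was run because the sample labels give no pairs of Tg and non-Tg mice. Without detection calls, what the dim signals of Cftr, Cldn7 and Sox9 can show is limited.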
